A study of Mus musculus with 18 samples.

Results

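The comparison described here is that of D15L150 spacer flaps with Control flaps in mouse skin: 3 D15L150 libraries against 3 Control libraries, out of 18 libraries in the whole series. Members were taken from the sample names, and no measured value was used to choose them. In the study, printed mesh spacers of varied diameter and spacing were laid beneath skin flaps, and total RNA of the skin was sequenced after 7 days. D15L150 flaps lay over the mesh of that name, and Control flaps got no treatment after the flap was made. The other 12 libraries are 3 each of D15L100, D15L200, D100L150 and D150L150 spacer flaps, which serve here only to show where D15L150 stands apart. The labels give no unit for D and L, no strain, age or sex of the mice, and no word on whether replicates were separate animals, so p-values measure only a spread between libraries that may be technical.

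A skin flap holds the interfollicular epidermis, in which keratinocytes leave a basal layer and cornify, and the hair follicles, whose growing bulb makes an inner root sheath and a shaft. Sonic hedgehog from the follicle epithelium is received by PTCH1 on neighbouring cells, which releases SMO and lets GLI factors switch on targets that include Ptch1, Gli1 and Hhip. WNT signals act beside it in the follicle. Lymphatic vessels of the dermis drain fluid and carry markers such as Lyve1 and the chemokine CCL21, which draws dendritic cells. In bulk tissue, fewer cells of a type and less RNA per cell cannot be told apart.

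No gene passed an adjusted p of 0.05 between D15L150 and Control flaps. The data in this comparison are therefore differences with their errors, and for many genes the D15L150 range overlapped that of the other spacer flaps. The D15L150 libraries had more RNA of cornifying epidermis, of the hedgehog genes Ptch1 and Gli1, and of the lymphatic genes Ccl21a and Mmrn1. Of the 10 lymphatic genes tested, 5 had differences above 0 and 5 below. RNA of blood vessel and mitochondrial genes was lower in the D15L150 libraries. Of 20 blood endothelial genes, 18 were lower at an unadjusted limma p under 0.05, and 4 when the library Control 1 was left out. RNA of 1 set of follicle keratins was higher mostly in 1 of the 3 D15L150 libraries. Against the other spacer flaps, Krt28 and Krt2 had an adjusted p under 0.05, but both entered the test only through the D15L150 libraries, so that these values are a description.

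The inner root sheath keratins are shown first as sequence, because they differed together between libraries and are coded in 2 clusters. Krt25, Krt27 and Krt28, type I keratins, lie on chromosome 11 and span 99315516 to 99374903 in GRCm38.p6, and Krt71 and Krt73, type II keratins, lie on chromosome 15 between 101733949 and 101802360. The 120 bases before each start site, from RefSeq on the GRCm38.p6 build, are given 5′ to 3′ on the coding strand, with the letters TATAAA in capitals.
Krt28 (GRCm38.p6 chr11:99374904-99375023, minus strand): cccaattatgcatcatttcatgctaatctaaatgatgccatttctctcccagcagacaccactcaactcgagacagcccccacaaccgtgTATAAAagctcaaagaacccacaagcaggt
Krt25 (GRCm38.p6 chr11:99322952-99323071, minus strand): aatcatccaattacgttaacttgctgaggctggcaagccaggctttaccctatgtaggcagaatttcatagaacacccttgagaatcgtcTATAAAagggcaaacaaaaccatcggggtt
Krt27 (GRCm38.p6 chr11:99351119-99351238, minus strand): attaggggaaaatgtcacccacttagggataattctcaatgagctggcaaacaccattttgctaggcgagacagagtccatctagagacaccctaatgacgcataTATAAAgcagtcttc
Krt71 (GRCm38.p6 chr15:101743098-101743217, minus strand): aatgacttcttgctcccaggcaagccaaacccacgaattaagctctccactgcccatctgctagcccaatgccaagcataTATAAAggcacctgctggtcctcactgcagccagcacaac
Krt73 (GRCm38.p6 chr15:101802361-101802480, minus strand): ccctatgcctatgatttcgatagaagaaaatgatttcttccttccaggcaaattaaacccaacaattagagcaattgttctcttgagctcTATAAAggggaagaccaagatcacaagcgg
All 5 held TATAAA within 40 bases of the start site. Its first base stood 30 bases before the start in Krt25, Krt28 and Krt73, 40 bases before it in Krt71 and 15 bases before it in Krt27. TATAAA was present on either strand in 13.6% of the 32851 mouse promoter windows of 300 bases. This motif was searched after these sequences had been read, and a match is a description of the letters only.

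The libraries held 28841520 to 34511676 recovered fragments in the D15L150 group and 30971888 to 33160818 in the Control group. Values are FPKM, counted fragments scaled to gene length and to the library's total. Differences are log2 differences of log2(FPKM + 1), D15L150 minus Control, with their standard error (SE) from limma fitted to all 18 libraries. Adjusted p-values come from the same limma model, by the Benjamini-Hochberg method across the 13078 genes tested. Control 1 stood apart from the other Control libraries: its correlation over genes was 0.922 with Control 2 and 0.94 with Control 3, against 0.978 between those. The D15L150 libraries correlated at 0.987, 0.959 and 0.966, with D15L150 3 the less similar one. Mitochondrial transcripts took 5.6%, 5.58% and 4.41% of summed FPKM in D15L150 flaps, against 12.54%, 10.74% and 7.4% in Control flaps. Skeletal muscle genes took 4.42%, 4.62% and 1.02% in D15L150 flaps and 2.23%, 5.11% and 2.37% in Control flaps. The tissue label held in both groups, as Krt14, the basal keratin of epidermis, lay at 1791, 2555 and 4114 FPKM in D15L150 flaps and at 788, 1711 and 1692 FPKM in Control flaps. Among genes tested, differences with an unadjusted p under 0.05 that moved by over 1.5 times without Control 1 are given with and without it. Differences of larger p may be given with it alone. The part of mitochondrial and muscle shares in the results was not tested.

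Across all genes, 2585 of 13078 had an unadjusted p under 0.05, which is 19.8% where chance alone gives 654 genes. Of these, 1291 (9.87% of the genes tested) were higher and 1294 (9.89%) were lower in D15L150 flaps, and the smallest adjusted p was 0.0525. All 3 D15L150 libraries lay above all 3 Control libraries in 1620 genes (12.4%), and below them in 1833 genes (14%). Without Control 1, the genes under an unadjusted p of 0.05 numbered 1280, with 755 higher (5.77%) and 525 lower (4.01%). Without D15L150 3 they numbered 1677, with 753 higher and 924 lower. The FPKM of a library summed to 405678 to 452269 in D15L150 flaps and 441167 to 484753 in Control flaps, and rescaling to TPM, which sets these sums equal, gave a split of 1652 higher and 735 lower.

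Some settings gave calls. Rescaling to TPM gave 142 (1.09% of 13078 genes), quantile scaling 88 (0.673%), a pseudocount of 0.1 gave 28 (0.214%), and leaving out D15L150 1 gave 45 (0.344%). A set of 22 genes was called in all 4 of these settings, among them Krt28, Krt2, Dsc1, Dsg1b, Cers3, Abca12, Hrnr, Smpd3, Gsdmc, Serpinb6c and Ptk6. Of the 142 calls under TPM, 29 were in any of the 35 lists. They included 18 of 46 suprabasal and cornified genes (39.1%), 5 of 17 wound-activated keratinocyte genes (29.4%) and 1 of 16 hedgehog genes (6.25%), Ptch1.

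**Figure D1:**
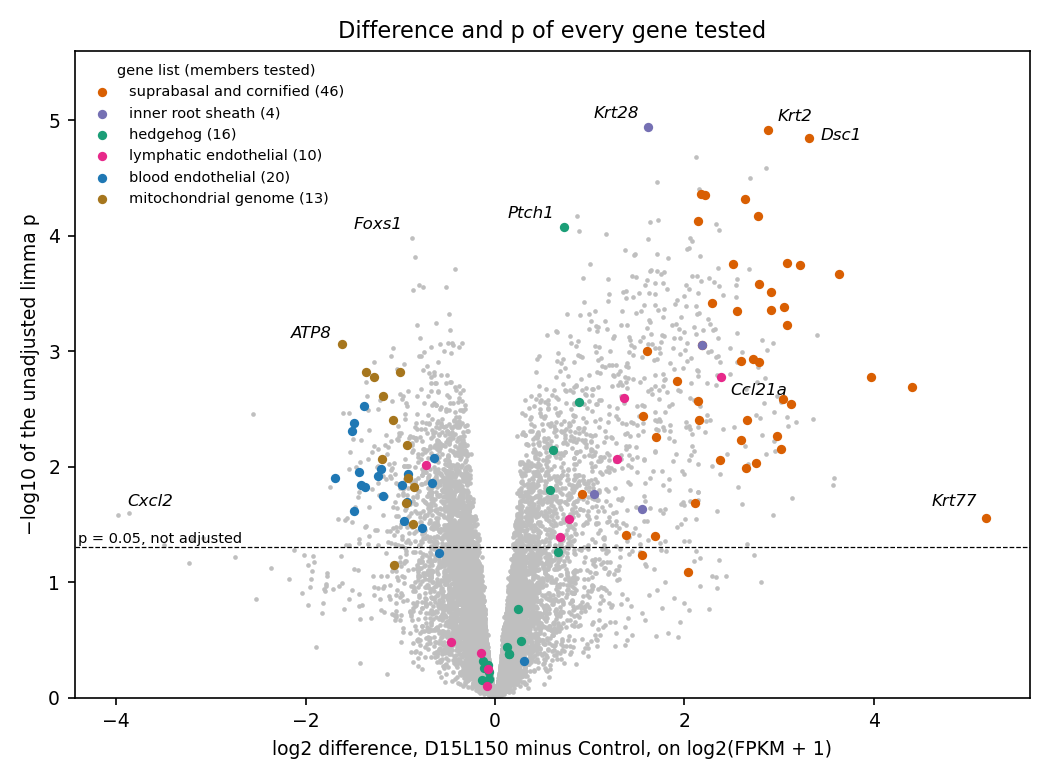
The log2 difference between D15L150 and Control flaps (x axis, log2(FPKM + 1) scale) against −log10 of the unadjusted limma p (y axis) for the 13078 genes tested, with 6 gene lists coloured. Suprabasal genes lie on the right, with Krt2 at 2.88 and Krt77 at 5.19, and blood endothelial and mitochondrial genes lie on the left.

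Among hair follicle genes, the inner root sheath keratins had their highest values in D15L150 flaps, mostly in 1 library. The inner root sheath moulds the growing hair and is filled with its own keratins and with trichohyalin. Of 12 listed genes, 11 were in the table and 4 passed the filter on low values (1 FPKM or more in no fewer than 3 libraries). Krt28 passed it only through the D15L150 libraries, so that it had to differ, and no count over these 4 genes is used as support.

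Krt28, a type I keratin of the inner root sheath, lay at 1.85, 4.01 and 1.40 FPKM in D15L150 flaps and at 0, 0.088 and 0.095 FPKM in Control flaps. The groups did not overlap, and the difference was 1.62 ± 0.25 (SE, log2), adjusted p = 0.0525. Without D15L150 2 it was 1.30, with adjusted p = 0.124. Krt71, the type II keratin that pairs with the type I keratins of this sheath, lay at 0.533, 18.8 and 0.335 FPKM in D15L150 flaps and at 0, 0.055 and 0.089 FPKM in Control flaps. Krt25 lay at 0.641, 13.0 and 0.052 FPKM in D15L150 flaps, against 0.08, 0.076 and 0.016 FPKM in Control flaps. D15L150 2 thus carried nearly all the Krt71 and Krt25 RNA of the group, and D15L150 3 lay inside the Control range for Krt25.

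Krt27, Krt73 and Tchh had the same library on top. Krt27 lay at 0.222, 8.30 and 0.288 FPKM in D15L150 flaps and 0.041, 0.135 and 0.062 FPKM in Control flaps, and Krt73 at 0.782, 4.35 and 0.206 FPKM in D15L150 flaps and 0.029, 0.11 and 0 FPKM in Control flaps. Tchh, which codes for trichohyalin, lay at 0.619, 5.96 and 0.988 FPKM in D15L150 flaps and 0.377, 0.455 and 0.252 FPKM in Control flaps. In fragments, Krt71 had 40, 1404 and 21 in D15L150 flaps and 0, 4 and 6 in Control flaps, and the 12 other spacer libraries had 0 to 26. D15L150 1 thus also lay above every other spacer library for Krt71, while D15L150 3 did not. Krt26 and Krt72 were listed above 0 in D15L150 2 alone among the 18 libraries, at 0.135 and 0.261 FPKM.

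For Tgm3 and Gata3 the highest library was D15L150 3. Tgm3, the transglutaminase that cross-links trichohyalin and also acts in the cornified layer, lay at 6.56, 11.5 and 11.98 FPKM in D15L150 flaps and 1.10, 1.18 and 1.82 FPKM in Control flaps, a difference of 2.19 ± 0.52 with adjusted p = 0.0668. Gata3, a transcription factor of the sheath that epidermis and lymphocytes also express, lay at 10.09, 12.004 and 19.99 FPKM in D15L150 flaps and 0.843, 7.39 and 6.72 FPKM in Control flaps. Its difference was 1.55 ± 0.61 with Control 1 and 0.85 ± 0.55 without it. Both genes overlapped the other spacer flaps, in which Tgm3 ranged from 2.77 to 27.6 FPKM.

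Hair shaft keratins were all below the filter on low values, and Krt85 and Krt35 had their highest counts in D15L150 2. Of 28 listed shaft genes 26 were in the table and 2 were tested, Psors1c2 and Krtap3-2, a keratin-associated protein gene. Krt85, a keratin of the early shaft, had 32, 190 and 26 fragments in D15L150 flaps and 0 in each Control flap, with 0 to 7 in the other spacer libraries. Krt35, a type I keratin of the shaft, had 18, 139 and 13 fragments in D15L150 flaps, against 0, 1 and 1 in Control flaps. All 3 D15L150 libraries were above all 15 others for both genes, at low levels. Krtap3-2 lay at 0.675, 1.44 and 1.01 FPKM in D15L150 flaps and 0.062, 0.175 and 0.251 FPKM in Control flaps, a difference of 0.80 ± 0.24.

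Regulators of the hair matrix differed in part. Of 16 tested, 4 were higher at an unadjusted p under 0.05 (25%, against 9.87% of all genes), and none was lower. Without Control 1, 3 were higher and 1 was lower, and the median was 0.12, against 0.3 with it. Dlx3, a homeobox gene needed for the shaft and sheath, lay at 4.42, 7.53 and 7.79 FPKM in D15L150 flaps and 0.305, 1.18 and 1.25 FPKM in Control flaps, a difference of 2.00 ± 0.42 with adjusted p = 0.0536. Ovol1, a zinc-finger factor of differentiating epidermis and follicle, was higher by 1.69 ± 0.35. Foxn1, the gene mutated in nude mice, lay at 1.28, 1.36 and 2.28 FPKM in D15L150 flaps and 0.2, 0.472 and 0.594 FPKM in Control flaps. Its difference was 0.88 ± 0.21, adjusted p = 0.0668. Eda, the ectodysplasin ligand, was higher by 0.34 ± 0.13 with Control 1 and by 0.18 ± 0.11 without it. Edar, its receptor, had 19, 17 and 21 fragments in D15L150 flaps, against 0, 9 and 8 in Control flaps. Hoxc13, Msx2, Vdr and Cux1 had differences of 0.33, 0.28, 0.61 and -0.08, with overlapping libraries.

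Few follicle stem cell genes differed. Of 15 tested, 2 were higher at an unadjusted p under 0.05 (13.3%), Lgr6 and Col17a1, and their differences without Control 1 were 0.32 and 0.48, against 0.73 and 1.18 with it. Sox9, Nfatc1 and Tcf7l1, transcription factors of the bulge, had differences of -0.04, -0.08 and 0.04. Among markers of the dermal papilla, the mesenchyme at the base of the follicle, 8 were tested and 5 were lower at an unadjusted p under 0.05 (62.5%, against 9.89% of all genes). Of the 8, 2 had differences above 0. Alpl, a listed marker below the filter, was higher by 0.38 ± 0.14 in the fit with no filter. Sox2 lay at 0.423, 0.343 and 0.281 FPKM in D15L150 flaps and 3.22, 0.685 and 1.24 FPKM in Control flaps, and Hey1, a Notch target also made by vessels, at 1.88, 1.99 and 1.11 FPKM in D15L150 flaps and 10.8, 3.59 and 3.85 FPKM in Control flaps. The differences were -0.90 for Sox2 and -1.28 for Hey1 with Control 1, and -0.53 and -0.85 without it. Control 1 was highest in both, Sox18 is also a blood vessel gene, and the median of the 8 genes was -0.94 with Control 1 and -0.51 without it.

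Hedgehog genes differed in part between D15L150 and Control flaps. Of 26 genes listed, 16 were tested, of which 4 were higher (25%, against 9.87% of all genes) and 0 lower at an unadjusted p under 0.05. The median of the 16 was 0.15, against -0.05 for all genes. Without Control 1, 3 of the 16 were higher and the median was 0.04.

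Ptch1, the receptor that holds SMO off and is itself a target, lay at 3.41, 2.69 and 4.18 FPKM in D15L150 flaps and 1.81, 1.51 and 1.65 FPKM in Control flaps. The groups did not overlap, and the difference was 0.73 ± 0.13, adjusted p = 0.0525. It was 0.77 ± 0.15 without Control 1. Smo, the signal transducer, lay at 14.6, 14.3 and 16.3 FPKM in D15L150 flaps and 6.64, 12.5 and 10.9 FPKM in Control flaps. Its difference of 0.58 ± 0.21 became 0.34 ± 0.20 without Control 1. Boc, a co-receptor, was higher by 0.67 ± 0.32 with Control 1 and by 0.24 ± 0.25 without it.

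Gli1, the factor whose RNA is the standard readout of the pathway, lay at 2.71, 2.68 and 3.78 FPKM in D15L150 flaps and 0.451, 1.94 and 1.39 FPKM in Control flaps. All D15L150 libraries were above all Control libraries, and the difference was 0.89 ± 0.25, adjusted p = 0.0949. It was 0.60 ± 0.22 without Control 1. Hhip, a decoy receptor induced by the pathway, was below the filter, with 44, 35 and 33 fragments in D15L150 flaps and 16, 17 and 13 in Control flaps. Shh, the ligand of the follicle, had 29, 47 and 44 fragments in D15L150 flaps, against 10, 4 and 16 in Control flaps. Both genes had non-overlapping groups at these counts. Ihh and Dhh stayed under 1 FPKM in every D15L150 and Control library.

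The other pathway members had small differences. Sufu and Gli3, which restrain the pathway, had differences of -0.07 ± 0.11 and -0.06 ± 0.12, and Disp1 and Hhat, which release and acylate the ligand, had -0.13 ± 0.18 and -0.06 ± 0.14. Gas1 and Cdon, co-receptors, had -0.14 ± 0.37 and 0.15 ± 0.18, and Ccnd1, a cell cycle target, had -0.12 ± 0.20. Foxf1, a target in mesenchyme, lay at 0.095, 0.084 and 0.071 FPKM in D15L150 flaps and 0.391, 0.161 and 0.278 FPKM in Control flaps, below the filter and in the direction opposite to Gli1. The GLI consensus GACCACCCA, searched on both strands, was in none of the 21 promoter windows available for 19 of the 26 genes, and in 0.253% of all windows.

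**Figure D2:**
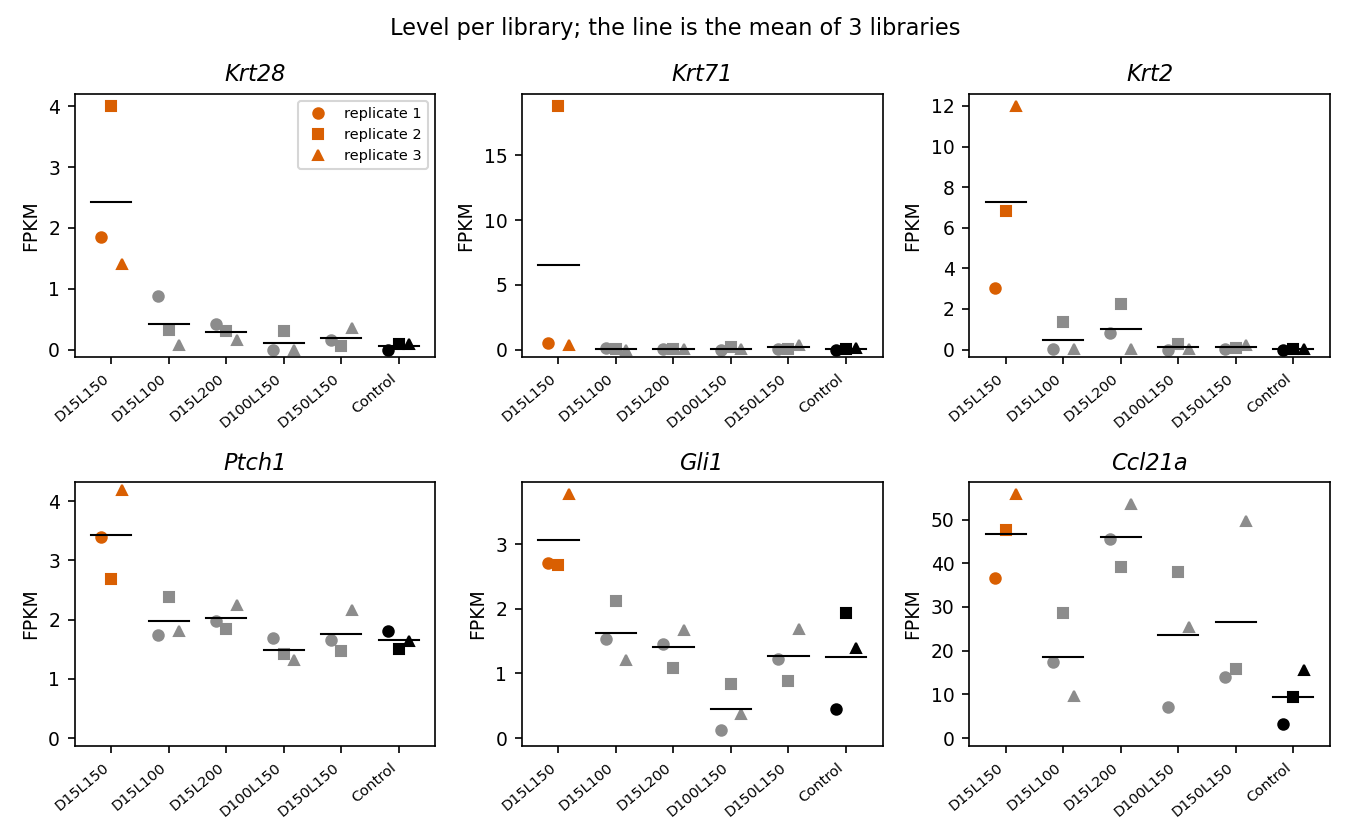
FPKM per library (y axis) of 6 genes in each group (x axis), with a marker shape per replicate number and a line at the mean of 3 libraries. Krt71 is high in D15L150 2 alone at 18.8 FPKM, whereas Ptch1 and Gli1 are highest in all 3 D15L150 libraries, and Ccl21a in D15L150 flaps overlaps the D15L200 flaps.

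Ptch1 and Gli1 also lay above every other spacer library. Ptch1 ranged from 1.32 to 2.38 FPKM in the 12 other spacer libraries, below the 2.69 FPKM of the lowest D15L150 library, and the difference was 0.65 ± 0.11, adjusted p = 0.105. Gli1 ranged from 0.128 to 2.12 FPKM there, a difference of 0.93 ± 0.20 with adjusted p = 0.735. Hhip fragments, at 2 to 20, were also below all 3 D15L150 libraries. Shh was not separated, since 1 other spacer library had 64 fragments. In this contrast 35 of 13078 genes (0.268%) had all D15L150 libraries on top, Ptch1 and Gli1 among them, and 28 (0.214%) had them at the bottom. The counts on top and at the bottom were close to each other, so a place on top is given only as a description. How many genes chance alone would give was not tested. Neither Ptch1 nor Gli1 passed the adjusted threshold.

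WNT genes also differed in part, by a count that was smaller without Control 1. Of 41 genes listed 33 were tested, and 13 were higher (39.4%, against 9.87% of all genes) and 1 was lower at an unadjusted p under 0.05. Without Control 1, 7 were higher and 1 was lower. Among ligands, Wnt4 lay at 9.59, 11.4 and 22.8 FPKM in D15L150 flaps and 2.40, 8.03 and 6.58 FPKM in Control flaps, a difference of 1.25 ± 0.32 with adjusted p = 0.0798, and of 0.82 ± 0.26 without Control 1. Wnt3 and Wnt7b, ligands of follicle and epidermal keratinocytes, were each higher by 1.69, with D15L150 3 at 9.76 and 9.45 FPKM, well above the other D15L150 libraries.

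Fzd10, a frizzled receptor, was higher by 1.41 ± 0.36 and Lrp5, a co-receptor, by 0.47 ± 0.15. Rspo1, which strengthens WNT signals, lay at 1.01, 1.52 and 2.07 FPKM in D15L150 flaps and 0.717, 0.437 and 0.416 FPKM in Control flaps. Axin2, the general feedback target, lay at 3.36, 2.95 and 4.79 FPKM in D15L150 flaps and 0.984, 2.94 and 1.97 FPKM in Control flaps. The lowest D15L150 library and Control 2 were thus nearly equal, and the Axin2 difference was 0.70 ± 0.29 with Control 1 and 0.44 ± 0.30 without it. Lef1, the follicle's WNT transcription factor, was below the filter with 54, 58 and 80 fragments in D15L150 flaps and 35, 47 and 45 in Control flaps. Sfrp2, a secreted inhibitor of dermal fibroblasts, was the gene on the lower side, at 148, 147 and 54.4 FPKM in D15L150 flaps and 136, 235 and 312 FPKM in Control flaps.

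Lymphatic genes differed unevenly. Of 18 listed, 17 were in the table and 10 were tested. Of these, 5 were higher (50%, against 9.87% of all genes) and 1 was lower at an unadjusted p under 0.05. The median was 0.31, and 3 of the 10 had non-overlapping groups on the higher side (30%, against 12.4% of all genes). Without Control 1, 3 were higher and none was lower.

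Ccl21a, the chemokine of lymphatic vessels, lay at 36.7, 47.6 and 56.0 FPKM in D15L150 flaps and 3.22, 9.31 and 15.5 FPKM in Control flaps. The groups did not overlap, and the difference was 2.39 ± 0.62, adjusted p = 0.08. It was 1.85 ± 0.63 without Control 1. Mice carry near-identical copies of this gene, of which Ccl21b was at or near 0 in every library, so the assignment of reads among copies is uncertain. Mmrn1, a secreted multimerin of lymphatic endothelium, lay at 3.24, 3.14 and 4.75 FPKM in D15L150 flaps and 0.425, 0.683 and 1.48 FPKM in Control flaps, a difference of 1.36 ± 0.37 with adjusted p = 0.0931. Lyve1, the hyaluronan receptor that tissue macrophages also carry, lay at 14.3, 5.69 and 11.3 FPKM in D15L150 flaps and 2.21, 2.33 and 6.97 FPKM in Control flaps. D15L150 2 lay below Control 3 for Lyve1, and the difference was 1.29 ± 0.42. Cd163 and Mrc1, which tissue macrophages carry, were higher by 1.64 ± 0.57 and 0.90 ± 0.35, or by 1.08 ± 0.57 and 0.60 ± 0.37 without Control 1. The 15 macrophage genes tested did not share this direction, with 7 differences above 0, 8 below and a median of -0.07. The part of macrophages in the Lyve1 difference was not tested.

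Fgl2, which macrophages also make, and Ackr2, a decoy chemokine receptor, were higher by 0.78 ± 0.32 and 0.69 ± 0.31. Without Control 1 the differences were 0.68 ± 0.36 and 0.36 ± 0.29, with unadjusted p of 0.0833 and 0.232. The identity factor Prox1 was below the filter, at 0.448, 0.668 and 0.569 FPKM in D15L150 flaps and 0.736, 0.502 and 0.485 FPKM in Control flaps, so the groups overlapped. Flt4, the VEGF-C receptor, Itga9 and Nrp2 had differences of -0.08 ± 0.29, -0.07 ± 0.11 and -0.15 ± 0.17. Pdpn, which keratinocytes and fibroblasts share, had -0.46 ± 0.45, and Nr2f2, a factor of veins as well as lymphatics, had -0.73 ± 0.24, which was -0.40 ± 0.19 without Control 1. Neither Ccl21a nor Mmrn1 was separate from the other spacer flaps, which reached 53.6 and 3.82 FPKM.

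Of 8 genes that act on lymphatic growth, none was higher at an unadjusted p under 0.05. Vegfc lay at 3.51, 2.93 and 3.04 FPKM in D15L150 flaps and 3.19, 2.57 and 3.14 FPKM in Control flaps, with overlapping groups. Vegfd had a difference of 0.52 ± 0.46. At the same p, 4 of the 8 were lower (50%, against 9.89% of all genes), and these were Angpt2, Tek, Tie1 and Kdr, which blood vessels share. Without Control 1, 1 of the 8 was lower.

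Blood endothelial genes were lower in D15L150 flaps, by differences that Control 1 enlarged. Of 20 tested, 18 were lower at an unadjusted p under 0.05 (90%) and 15 had non-overlapping groups on the lower side (75%, against 14% of all genes). Gja4, an arterial connexin, lay at 8.83, 7.70 and 5.61 FPKM in D15L150 flaps and 37.3, 13.3 and 17.1 FPKM in Control flaps, a difference of -1.38 ± 0.38 with adjusted p = 0.0958. Esam, a junction protein, lay at 22.4, 18.6 and 11.2 FPKM in D15L150 flaps and 106, 27.0 and 41.7 FPKM in Control flaps, a difference of -1.51 with Control 1 and -0.96 without it. The list median was -1.19. Without Control 1 it was -0.71 and 4 of 20 genes were lower, and without D15L150 3 it was -1 and 8 were lower. The list level, the mean log2(FPKM + 1) of its members, was 3.78, 3.53 and 3.15 in D15L150 flaps and 5.37, 3.88 and 4.44 in Control flaps.

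**Figure D3:**
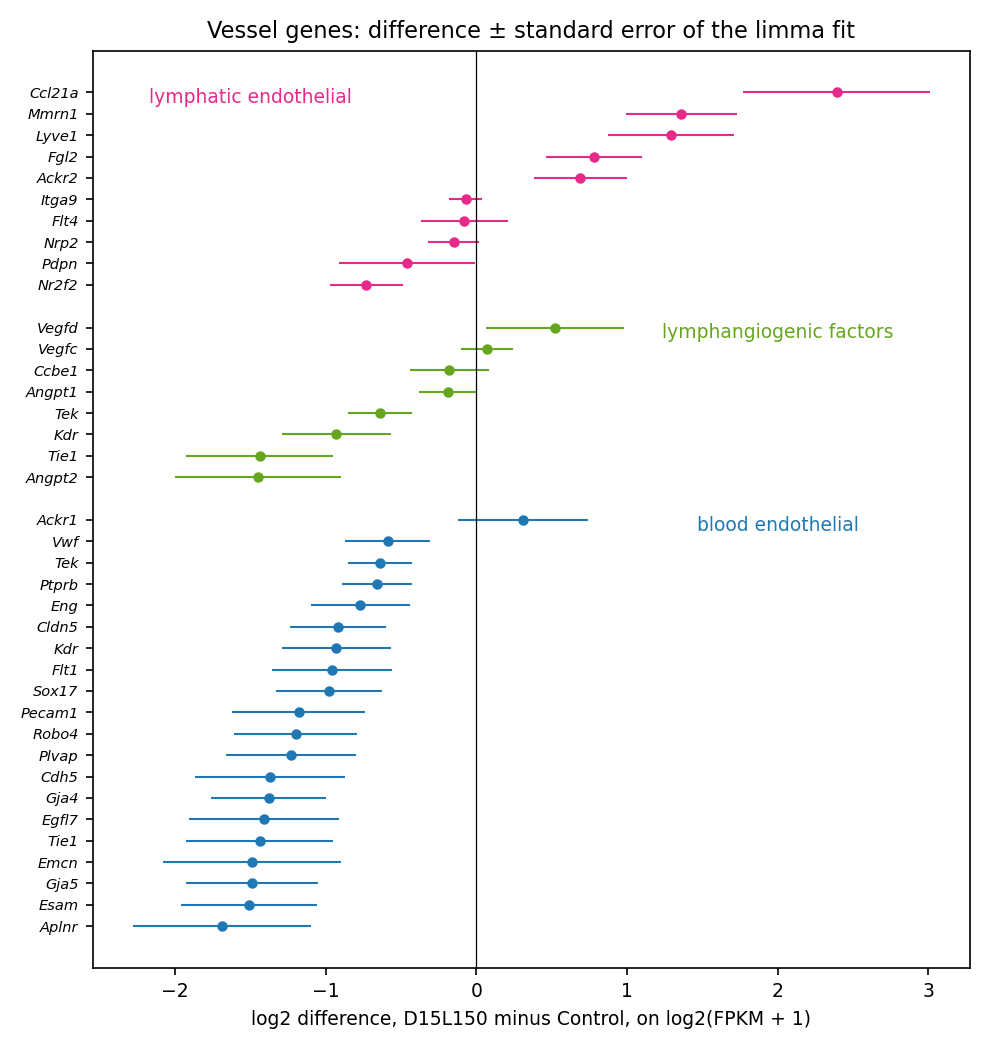
Log2 difference between D15L150 and Control flaps (x axis), with its limma standard error as a bar, for the tested members of 3 vessel gene lists (y axis). Ccl21a, Mmrn1 and Lyve1 lie to the right at 2.39, 1.36 and 1.29, while 19 of 20 blood endothelial genes lie to the left of 0.

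Of the 35 lists, that of suprabasal and cornified epidermis had the largest median difference. Of 47 listed suprabasal and cornified genes 46 were tested, of which 44 were higher at an unadjusted p under 0.05 (95.7%, against 9.87% of all genes), and 42 had non-overlapping groups (91.3%, against 12.4%). Their median difference was 2.65, and all 46 lay above 0. Without Control 1 the median was 2.00 and 36 were higher. The list level was 5.86, 6.6 and 7.03 in D15L150 flaps and 2.54, 4.58 and 4.55 in Control flaps, so Control 1 was lowest.

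Krt2, the keratin of the upper layers that is normally strong in mouse ear, tail and sole skin, lay at 3.03, 6.82 and 12.01 FPKM in D15L150 flaps and 0, 0.023 and 0.012 FPKM in Control flaps. Its difference was 2.88 ± 0.44, adjusted p = 0.0525, and it too passed the filter only through the D15L150 libraries. Krt1 and Krt10, the main suprabasal pair, were higher by 3.97 ± 1.03 and 4.40 ± 1.17. Krt10 lay at 284, 657 and 734 FPKM in D15L150 flaps and 4.003, 49.6 and 56.4 FPKM in Control flaps. Krt77 had the largest difference of any gene tested, 5.19 ± 2.11, with Control 1 at 0.022 FPKM, and its difference was 3.34 ± 2.17 without that library.

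Junction and lipid genes of the barrier were among the smallest p-values. Dsc1, a desmosomal cadherin of the upper layers, lay at 50.8, 86.0 and 126 FPKM in D15L150 flaps and 3.94, 7.96 and 12.1 FPKM in Control flaps, a difference of 3.32 ± 0.51 with adjusted p = 0.0525. Dsg1b, its partner cadherin, was higher by 2.18 ± 0.37 and Cdsn, the corneodesmosome protein, by 3.22 ± 0.64. Cers3 and Abca12, which make and load barrier ceramides, were higher by 2.22 ± 0.38 and 2.64 ± 0.46, and Smpd3, a sphingomyelinase, by 2.15 ± 0.39. Hrnr, a filaggrin-like protein, lay at 17.3, 41.8 and 47.3 FPKM in D15L150 flaps and 3.23, 4.30 and 4.18 FPKM in Control flaps. For each of these genes every D15L150 library was above every Control library, and each overlapped the range of the other spacer flaps.

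Most wound-activated keratinocyte genes were higher as well. Of 17 tested, 13 were higher at an unadjusted p under 0.05 (76.5%, against 9.87% of all genes), and 3 had differences below 0, down to -1.4. The median was 1.41, and 1.43 without Control 1. Against the other spacer flaps the median of the list was -0.53, where that of all genes was -0.01. Krt6a, a keratin of activated and follicle epithelium, lay at 731, 838 and 1395 FPKM in D15L150 flaps and 241, 301 and 413 FPKM in Control flaps. Krt6b and Krt16 were higher by 2.18 ± 0.45 and 1.63 ± 0.37. Against the other spacer flaps the differences were -0.46 for Krt6a and -0.27 for Krt6b and for Krt16, with adjusted p of 0.89 to 0.905. Of 14 basal keratinocyte genes 7 were higher (50%), with Krt14 higher by 1.01 ± 0.32. Without Control 1, 3 of the 14 were higher, and Krt14 by 0.64 ± 0.30.

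On the lower side, genes of the mitochondrial genome were lower together. Of 13, 12 were lower at an unadjusted p under 0.05 (92.3%, against 9.89% of all genes), with a median of -1.07, which was -0.86 without Control 1, where 9 were lower. COX1, a subunit of complex IV, lay at 7445, 8382 and 7056 FPKM in D15L150 flaps and 17608, 17139 and 11735 FPKM in Control flaps. Quantile scaling gave a COX1 difference of 0. That scaling gives genes of equal rank the same value, so for a gene this high it cannot decide whether the level differed. The 21 nuclear genes of oxidative phosphorylation had a median of -0.29, with 2 lower (9.52%), and none without Control 1.

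Genes of 3 secreted immune proteins were among those with the largest lower differences, by which they were chosen. Cxcl2, a neutrophil chemokine, lay at 63.0, 12.2 and 17.4 FPKM in D15L150 flaps and 1217, 117 and 425 FPKM in Control flaps, a difference of -3.98 ± 1.60 with adjusted p = 0.193. Spp1, osteopontin, lay at 241, 123 and 113 FPKM in D15L150 flaps and 2122, 463 and 708 FPKM in Control flaps. Csf3, the granulocyte growth factor, lay at 0.344, 0.105 and 0.411 FPKM in D15L150 flaps and 89.0, 2.07 and 4.95 FPKM in Control flaps. Control 1 was highest in all 3 genes, and the groups did not overlap. Without it the differences were -3.17 ± 1.79 for Cxcl2, -1.93 ± 0.75 for Spp1 and -1.74 ± 1.39 for Csf3, against -3.98, -2.56 and -3.20 with it, and the unadjusted p of Cxcl2 and Csf3 was 0.1 and 0.234.

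The smallest p-values among lower genes belonged to low, evenly separated genes. Foxs1, a forkhead gene of pericytes, lay at 1.79, 1.74 and 1.27 FPKM in D15L150 flaps and 4.995, 3.47 and 3.05 FPKM in Control flaps, a difference of -0.88 ± 0.17 with adjusted p = 0.0525, and of -0.72 ± 0.16 without Control 1. The difference was -0.84 ± 0.16 for Mfng, a Notch glycosyltransferase, -0.86 ± 0.18 for Lmod1, a smooth muscle leiomodin, and -0.76 ± 0.16 for Colq, which anchors acetylcholinesterase at the neuromuscular junction. Of 12 genes of muscle regeneration and denervation 8 were lower (66.7%), and 1 without Control 1. The 24 skeletal muscle genes had a median of -0.20 and 1 lower (4.17%).

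Of 7 mast cell genes tested, 5 were higher at an unadjusted p under 0.05 (71.4%, against 9.87% of all genes), and 4 without Control 1. Cpa3, a protease of connective tissue mast cells, lay at 19.9, 25.8 and 32.1 FPKM in D15L150 flaps and 1.03, 2.91 and 5.65 FPKM in Control flaps, a difference of 2.82 ± 0.86 with adjusted p = 0.113. Fcer1a, the IgE receptor chain, lay at 2.53, 2.12 and 3.23 FPKM in D15L150 flaps and 0.062, 0.175 and 1.10 FPKM in Control flaps. Cma1, Mcpt4 and Tpsb2, granule proteases, were higher by 2.64, 2.57 and 2.08. The remaining tested members had overlapping groups and lay on the other side, Kit, the stem cell factor receptor, at -0.70 ± 0.34 and Hdc, the histamine-forming enzyme, at -2.18 ± 1.21. The 9 neutrophil genes had no member under an unadjusted p of 0.05, and the 15 macrophage genes had 3 higher (20%) and 2 lower (13.3%), with 0 higher and 2 lower without Control 1.

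**Figure D4:**
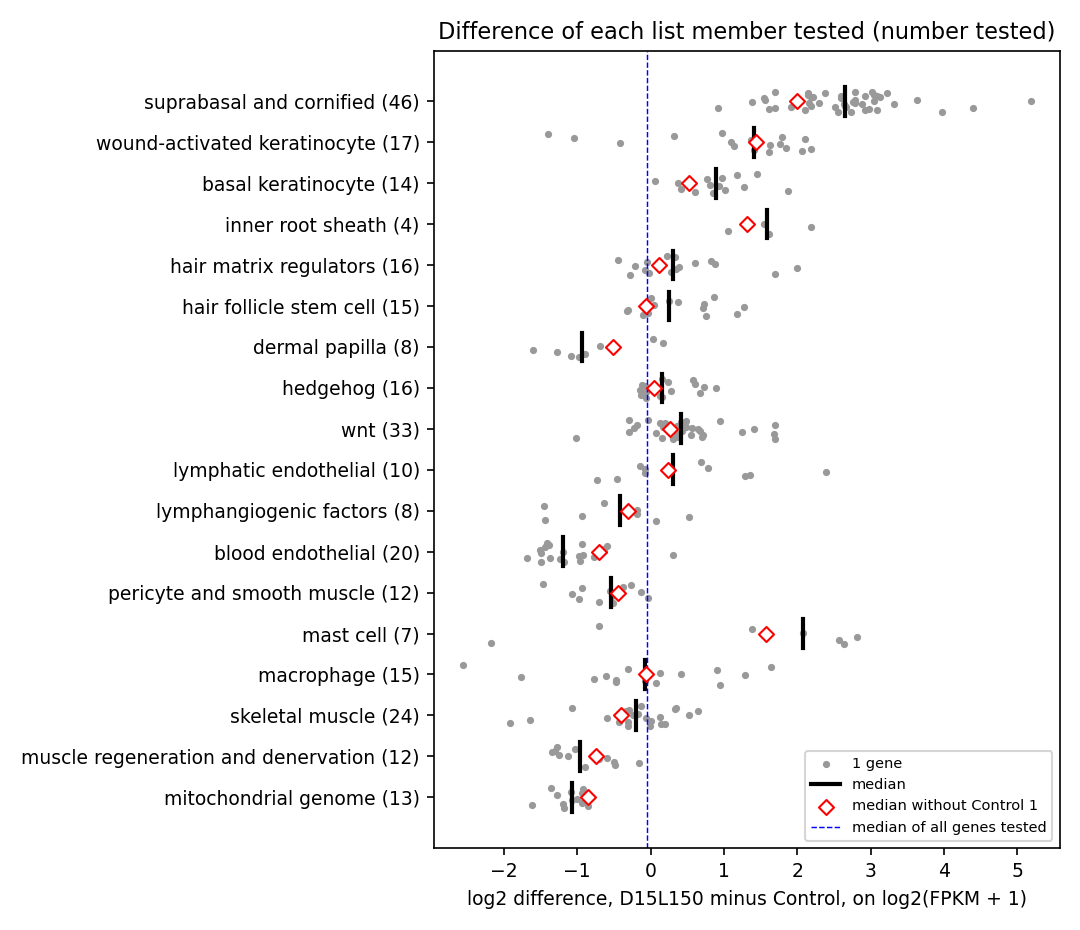
Log2 difference between D15L150 and Control flaps (x axis) of every tested member of 18 gene lists (y axis), 1 grey point per gene, with the median as a bar and the median without Control 1 as a diamond. The suprabasal list sits farthest right with a median of 2.65, and the blood endothelial median moves to -0.71 without Control 1.

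Set against the mean of the 4 other spacer groups, D15L150 flaps had 2 genes past the threshold, Krt28 and Krt2, both higher (0.0153% of 13078 genes). Krt28 was higher by 1.40 ± 0.19, adjusted p = 0.0282, with 0 to 0.873 FPKM in the 12 other spacer libraries, all below the 1.40 FPKM of D15L150 3. Krt2 was higher by 2.50 ± 0.35, adjusted p = 0.0282, with 0 to 2.25 FPKM there, below the 3.03 FPKM of D15L150 1. Both passed the filter on low values only through the D15L150 libraries, since 0 of the 15 other libraries reached 1 FPKM for Krt28 and 2 did for Krt2. Krt28 was thus bound to differ, and Krt2 was favoured by the filter but not bound to differ. The adjusted p of both is given as a description. With no filter on low values both were among 6 genes called, at adjusted p = 0.024 for Krt28 and 0.0251 for Krt2. The 6 also held genes with differences of only 0.02 to 0.03, such as Crhr1 and Plcz1. With a filter on the mean of 18 libraries Krt28, at a mean of 0.581 FPKM, was not tested and Krt2 had adjusted p = 0.055. Without D15L150 2 neither passed (adjusted p = 0.203), without D15L150 1 only Krt2 passed, and without D15L150 3 only Krt28 passed. A fit with the replicate number as a block gave adjusted p = 0.058 for both. At an unadjusted p under 0.05, 239 genes were higher (1.83%) and 297 were lower (2.27%), together 4.1%, where chance alone gives 5%. D15L150 against D15L100 and against D15L200 gave 0 called genes each, with 617 (4.72%) and 96 genes (0.734%) under an unadjusted p of 0.05.

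Outside these genes, Smoc2, Esr1 and Adamts2 were among the 35 genes (0.268% of 13078) with all 3 D15L150 libraries above every other spacer library. Immune genes such as Irf4, Ncr1 and Klra3 were also in that set. Smoc2, a matrix protein of dermal fibroblasts, lay at 41.7, 46.8 and 46.0 FPKM in D15L150 flaps, against 2.59 to 41.1 FPKM in the other spacer flaps and 17.5, 20.3 and 19.5 FPKM in Control flaps. Esr1, the oestrogen receptor gene, lay at 3.94, 3.09 and 3.28 FPKM in D15L150 flaps, against 0.545 to 2.95 FPKM in the other spacer flaps and 0.893, 2.11 and 1.83 FPKM in Control flaps. Adamts2, the procollagen protease, lay at 53.8, 55.0 and 55.3 FPKM in D15L150 flaps, against 18.7 to 49.9 FPKM in the other spacer flaps and 25.0, 29.8 and 43.0 FPKM in Control flaps. Smoc2, Esr1 and Adamts2 each had an adjusted limma p of 0.89 against the other spacer flaps.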

How the data were processed

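RNA of mouse skin flaps at day 7 was measured by RNA sequencing. Per the labels' protocols, TRIzol was used for total RNA and a VAHTS Universal V6 kit for the libraries. The authors deposited 1 table of FPKM values for 27743 genes in 18 libraries. Without role or order, mm10, HTSeq, fastp, DESeq2, HISAT2 and R 3.2.0 appear in the submitters' processing notes. The sources used here give neither annotation nor strand setting, so overlapping and near-identical genes are uncertain. FPKM carry no exact depth, but their steps gave whole fragments for all genes within a relative tolerance of 1e-07.

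Groups came from sample titles. Values were taken as log2(FPKM + 1), which understates changes of low genes, and genes reaching 1 FPKM in 3 or more of the 18 libraries were kept (13078, with 14665 removed). All 18 libraries were fitted in limma 3.58.1 under R 4.3.3, each group with its own mean, a mean-variance trend and robust moderation, and Benjamini-Hochberg adjustment. The model and the recovery of fragments were tested on simulated data. D15L150 was compared with Control, with the mean of the 4 other spacer groups, with D15L100 and with D15L200. Lists are described by counts and medians without a test.

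Genes are named by a rule: the smallest p-values and largest differences among genes with non-overlapping libraries, members of the follicle, hedgehog, WNT and lymphatic lists, and the leading members of other lists. Some list members are not reported here. The comparison, the 35 lists and the alternatives were chosen with earlier results of these data known. Promoter windows (250 bases before to 50 after a start) are RefSeq's on GRCm38.p6, and 26705 of 27743 identifiers matched its gene table. Alternatives were a pseudocount of 0.1, no filter, a filter on the mean, TPM and quantile scaling, limma voom on recovered fragments, a replicate block, a fit of only the groups compared, and leaving out each library.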

Additional observations from a re-analysis of the deposited data

Results flagged for a closer look

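Krt28 and Krt2 are given here for their difference between D15L150 flaps and the other spacer flaps. Both passed the filter on low values only through the D15L150 libraries. This bound Krt28 to differ and favoured Krt2, and the adjusted p is a description. Krt28 was higher by 1.40 and Krt2 by 2.50 on the log2 scale, each with adjusted p = 0.0282 in limma with Benjamini-Hochberg adjustment, and higher in all 3 D15L150 libraries than in the 12 other spacer libraries. Krt28 had 109, 235 and 69 fragments in D15L150 flaps, 0 to 51 in the other spacer flaps and 0, 5 and 5 in Control flaps. Krt2 had 276, 617 and 914 fragments in D15L150 flaps, 0 to 180 in the other spacer flaps and 0, 2 and 1 in Control flaps. D15L150 2 was highest for Krt28 and D15L150 3 for Krt2. The part of single libraries in these differences was not tested beyond leaving each out in turn.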

How the results depend on the processing

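The count of genes called between D15L150 and Control was 0, and it became 28 with a pseudocount of 0.1, 142 with TPM, 88 with quantile scaling, and 0 to 45 when 1 library was left out. No calls came with no filter, a filter on the mean, voom, the replicate block or only the groups compared. Genes under an unadjusted p of 0.05 numbered 1280 to 2885 over the fits that leave out 1 library. Against the other spacer groups the 2 calls became 0 with a pseudocount of 0.1, a filter on the mean, TPM, voom, the replicate block and only the groups compared, 6 with no filter, and 0 to 1 when 1 D15L150 library was left out. The median of the inner root sheath list was 2.33 with a pseudocount of 0.1, 2.13 with TPM and 2.50 with voom, against 1.59. The COX1 difference was 0 with quantile scaling, which gives genes of equal rank the same value. The cause of these changes was not tested. The median of all genes was -0.06 to 0.04 over all settings.

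With 3 libraries a group, it could not be decided whether the replicate numbers pair the samples. Deviations of same-numbered D15L150 and Control libraries correlated at 0.19, 0.32 and 0.09. Each D15L150 library correlated best with the Control library of its own number. With the replicate block, 0 genes were called against Control and 2426 had an unadjusted p under 0.05, against 2585 without it. Between libraries of a group, chi-square per gene was 52.3 to 275.2, far above the value near 1 that counting noise gives. Depth limits genes of under 100 fragments, such as Shh, Hhip and Edar.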

Other observations

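Gene groups outside the comparisons above also had members that differed between D15L150 and Control flaps, none past the adjusted threshold. Of 9 nerve and Schwann cell genes, 4 were higher at an unadjusted p under 0.05 (44.4%, against 9.87% of all genes) and 1 was lower (11.1%, against 9.89%). Without Control 1, 2 were higher and none was lower. Mbp, a myelin protein gene, lay at 10.01, 12.9 and 7.49 FPKM in D15L150 flaps and 2.54, 4.30 and 3.83 FPKM in Control flaps, a difference of 1.28 ± 0.37. Of 11 heat shock genes, 4 were higher (36.4%), with and without Control 1, while 5 had differences below 0 and the median was 0.01. Among the 4 was Hspa1b, at 23.5, 30.1 and 46.6 FPKM in D15L150 flaps and 6.68, 16.1 and 14.0 FPKM in Control flaps. Both Mbp and Hspa1b had all D15L150 libraries above every Control library.

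Of 13 sebaceous gland genes, 2 were higher (15.4%, against 9.87% of all genes), and none without Control 1. Scd3, a lipid desaturase of that gland, lay at 19.7, 19.6 and 46.1 FPKM in D15L150 flaps and 0.046, 7.26 and 8.16 FPKM in Control flaps, a difference of 2.66 with Control 1 and 1.64 without it. Of 16 cell cycle genes, 3 were lower (18.8%, against 9.89% of all genes), and none without Control 1. Birc5, survivin, lay at 4.78, 6.59 and 7.60 FPKM in D15L150 flaps and 14.4, 8.99 and 9.46 FPKM in Control flaps.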
